A study of Mus musculus with 39 samples.

Results

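The 7 genes described here, *H2-Aa*, *H2-Ab1*, *H2-Eb1*, *Cd74*, *Ciita*, *H2-DMa* and *H2-DMb1*, are core genes of antigen presentation on MHC class II, and they were found by symbol among the 46078 genes of the per-sample counts. They were selected on their counts in the fat of *E47* knockout mice after dexamethasone (Dex), where several are higher than in wild-type fat, so their values in that contrast are a description and carry no test. They were followed through all 12 groups of the series.

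MHC class II molecules are pairs of an alpha and a beta chain that display peptides of ingested proteins to CD4+ T cells, mainly on dendritic cells, macrophages and B cells. *H2-Aa* and *H2-Ab1* encode the alpha and beta chain of the H2-A molecule, and *H2-Eb1* encodes the beta chain of H2-E, whose alpha chain gene is not functional in C57BL/6 mice. *Cd74* encodes the invariant chain, which guides new class II molecules to the endosome and blocks their groove, and *H2-DMa* and *H2-DMb1* encode the H2-DM pair that exchanges its remnant for peptide. *Ciita* encodes the transactivator that the RFX, CREB and NF-Y factors recruit to the X and Y boxes of class II promoters. E47 is a helix-loop-helix protein made from *Tcf3* that binds E-boxes (CANNTG) and is needed for B cell development. Glucocorticoids such as Dex are known to reduce immune activity.

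All 39 libraries came from male C57BL/6 mice aged 10 to 16 weeks on chow. Global *E47* knockouts (E47KO, *E47-/-*) and their wild-type littermates (WT, *E47+/+*) gave livers without treatment (6 E47KO and 5 WT), livers after 3 weeks of corticosterone (Cort, the natural hormone of mice) at 100 µg/ml in the drinking water (4 and 4), and liver (3 and 2), quadriceps (3 and 2) and epididymal fat (white adipose tissue, WAT, 2 and 2) after 3 weeks of Dex, a synthetic glucocorticoid, at 10 µg/ml in the drinking water. In addition, 3 mice with a liver-specific deletion (E47LKO, *Albcre/+;E47fl/fl*) and 3 controls without Cre were injected with Dex at 1 mg/kg and taken 1 h later. Control replicate 1 carried *E47fl/+* and the other controls *E47fl/fl*. The albumin promoter drives Cre in hepatocytes, so *E47* stays intact in the immune cells of E47LKO livers, whereas E47KO mice lack it in every cell and are known to lack mature B cells. Mice with 3 weeks of hormone were taken after a glucose tolerance test, and untreated mice were not.

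Libraries held 15513941 to 54560884 counts in genes, and levels are given as counts-per-million values (CPM) of that total. Between 20.8 and 36.8% of the entries of a library lay outside genes or were ambiguous, with the highest share in WT Dex liver replicate 2. Whole-gene *Tcf3* counts cannot check the deletion, since *Tcf3* also makes other proteins. Pooled over tissues, its levels of 6.30 to 21.5 CPM in mutants lay within those of controls (5.61 to 23.6 CPM). Within single comparisons they did not always: Dex livers had 11.1 to 15.5 CPM in E47KO against 11.6 to 11.9 CPM in WT. In WAT the ranges were 19.4 to 21.5 CPM against 19.9 to 23.6 CPM. Summed adipocyte, hepatocyte and muscle markers were highest in their own tissues. The hepatocyte sum of 4772 to 9105 CPM in WAT was nearly all *Cyp2e1* (means of 8149 CPM in WT and 5852 CPM in E47KO), which was not liver-specific here, whereas *Alb* had means of 54.3 and 66.9 CPM there. These are bulk tissues, in which fewer cells of a type and less RNA per cell cannot be told apart.

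Promoter sequences are shown because the genes varied together between libraries and the X and Y boxes are the known sites of class II control. RefSeq promoters (GRCm38.p6) were at hand for *H2-Aa*, *H2-Eb1*, *H2-DMa* and *H2-DMb1*, and for *H2-Aa* and *H2-Eb1* the 150 bases before the start of the gene are shown 5′ to 3′ on the strand of the gene, with the X box core and the Y box (CCAAT, or ATTGG on the other strand) in capitals. The core is the run of 11 capitals in *H2-Eb1* and *H2-DMb1*, of which bases 3, 4 and 7 were free in the search. The *H2-Aa* stretch is chr17:34287824-34287973 (minus strand), the *H2-Eb1* stretch is chr17:34305717-34305866 (plus strand), and of *H2-DMb1* the 30 bases around its X box core are shown, chr17:34153088-34153117 (plus strand). The RefSeq start of *H2-DMb1* lies downstream of the start of the gene in the annotation used for counting, so this stretch falls in its annotated first exon.
H2-Aa: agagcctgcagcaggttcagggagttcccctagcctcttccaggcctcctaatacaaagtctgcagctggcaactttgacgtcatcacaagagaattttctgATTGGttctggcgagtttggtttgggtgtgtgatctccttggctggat
H2-Eb1: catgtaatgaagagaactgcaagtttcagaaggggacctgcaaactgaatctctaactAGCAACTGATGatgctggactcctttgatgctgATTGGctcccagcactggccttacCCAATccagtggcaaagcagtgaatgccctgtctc
H2-DMb1: gtttacctAGTAACTGATGatgctaggctg

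*H2-Eb1* and *H2-DMb1* held both the X box core and a Y box, as did 0.292% of 32851 promoters when the 250 bases before each start were searched on both strands. In *H2-Eb1* the core lay 92 to 82 bases and the first Y box 59 to 55 bases before the start, and in *H2-DMb1* they lay 95 to 85 and 61 to 57 bases before the RefSeq start. *H2-Aa* held a Y box at 48 to 44 bases and no match to the core as spelled, and the 2 annotated starts of *H2-DMa* held no core and 1 Y box. The core was in 0.816% of promoters, and the Y box in 33.8%. The E-box CANNTG, which is in 66.2% of promoters, was present in *H2-Aa*, *H2-Eb1* and 1 start of *H2-DMa* and not in *H2-DMb1*. In *H2-Eb1*, 1 of its E-boxes (CAACTG) overlaps the X box core. An interferon-type repeat, GAAA and again GAAA with any 2 bases between them, was in 2.98% of promoters and in none of these. Of the other class II genes, *H2-Oa* and *H2-Eb2* held the core and *H2-Ob* and *H2-DMb2* did not.

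In the mm10 annotation, 5 of the genes lie on chromosome 17 in the MHC: *H2-DMa* (ENSMUSG00000037649) at chr17:34119541-34139101, *H2-DMb1* (ENSMUSG00000079547) at chr17:34153072-34160230, *H2-Ab1* (ENSMUSG00000073421) at chr17:34257689-34269419 and *H2-Eb1* (ENSMUSG00000060586) at chr17:34305867-34316674 on the plus strand, and *H2-Aa* (ENSMUSG00000036594) at chr17:34282744-34287823 on the minus strand. *Ciita* (ENSMUSG00000022504) lies at chr16:10480059-10528418 and *Cd74* (ENSMUSG00000024610) at chr18:60803848-60812652, both on the plus strand. *H2-DMa* shares 10.4% of its exon bases with *Brd2* on the opposite strand and *Ciita* shares 3.45% with *Dexi*, and the counts used here do not separate strands. *H2-DMb1* has a close neighbour of similar sequence, *H2-DMb2*, so its reads may be divided between them.

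*Cd74*, the invariant chain gene, led the list in every library. Per kilobase of exon, *Cd74* made up a median of 54.6% of the summed level of the 7 genes over the 39 libraries (range 43.6 to 60.5%), followed by *H2-Eb1* with 16.1%, *H2-Ab1* with 12.7% and *H2-Aa* with 10.7%. The H2-DM genes were minor, with medians of 3.02% for *H2-DMb1* and 1.89% for *H2-DMa*, and *Ciita* was the lowest at 0.186%. *H2-DMb1* reached 11.7% in WT WAT and *H2-DMa* 9.59% in WT muscle. The library that departed most was WT Dex liver replicate 2, where *H2-Aa* had 0.113 times the per-length level of *H2-Ab1*, against at least 0.578 times in every other library, and *H2-Aa* rested on 7 counts there.

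**Figure D1:**
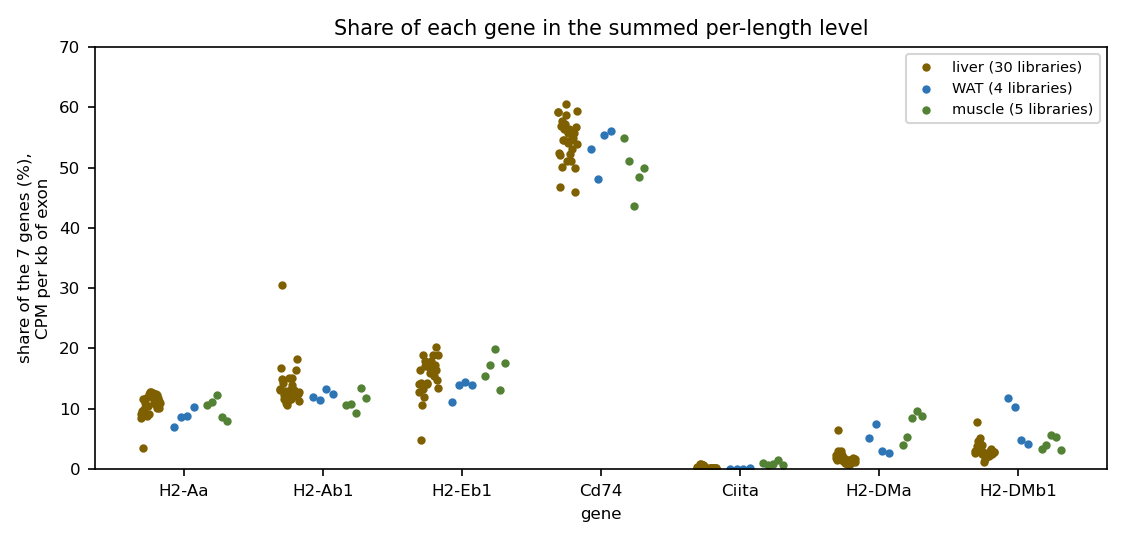
Share (%) of each gene in the summed level of the 7 genes per kilobase of exon, 1 point per library, coloured by tissue. *Cd74* is the largest part in every library, between 43.6 and 60.5%, and *Ciita* stays at or below 1.47%.

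Across the 12 groups, mean levels of *H2-Aa*, *H2-Ab1*, *H2-Eb1* and *Cd74* were highest in E47LKO livers 1 h after Dex, where *Cd74* had 50.4 ± 23.0 CPM (SD, n = 3) and *H2-Aa* 26.9 ± 13.0 CPM. They were lowest in WT muscle, where *Cd74* had 1.99 ± 0.745 CPM (SD, n = 2) and *H2-Aa* 0.752 ± 0.222 CPM. *H2-DMa* and *H2-DMb1* had their highest mean in E47KO WAT instead, at 4.23 ± 0.221 and 3.31 ± 0.265 CPM (SD, n = 2), and *Ciita* in untreated E47KO livers, at 0.762 ± 0.295 CPM (SD, n = 6). Most steps of these orders lay within the spread of the libraries. Of 11 pairs of neighbouring groups, the libraries overlapped in 9 for *H2-Aa*, *H2-Ab1* and *H2-DMa*, in 10 for *H2-Eb1*, *Cd74* and *Ciita*, and in 8 for *H2-DMb1*. For *H2-Aa* the clear steps were from E47KO WAT (15.7 CPM) down to E47KO Dex livers (8.0 CPM) and from E47KO to WT muscle. For *Cd74* the 1 clear step was from E47KO Dex livers (21.4 CPM) to E47KO Cort livers (12.4 CPM). Scaling all libraries jointly lowered the WAT means to 0.588 and 0.598 times these values and changed the other groups by factors of 0.974 to 1.13, so the place of WAT in these orders depends on the scaling.

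**Figure D2:**
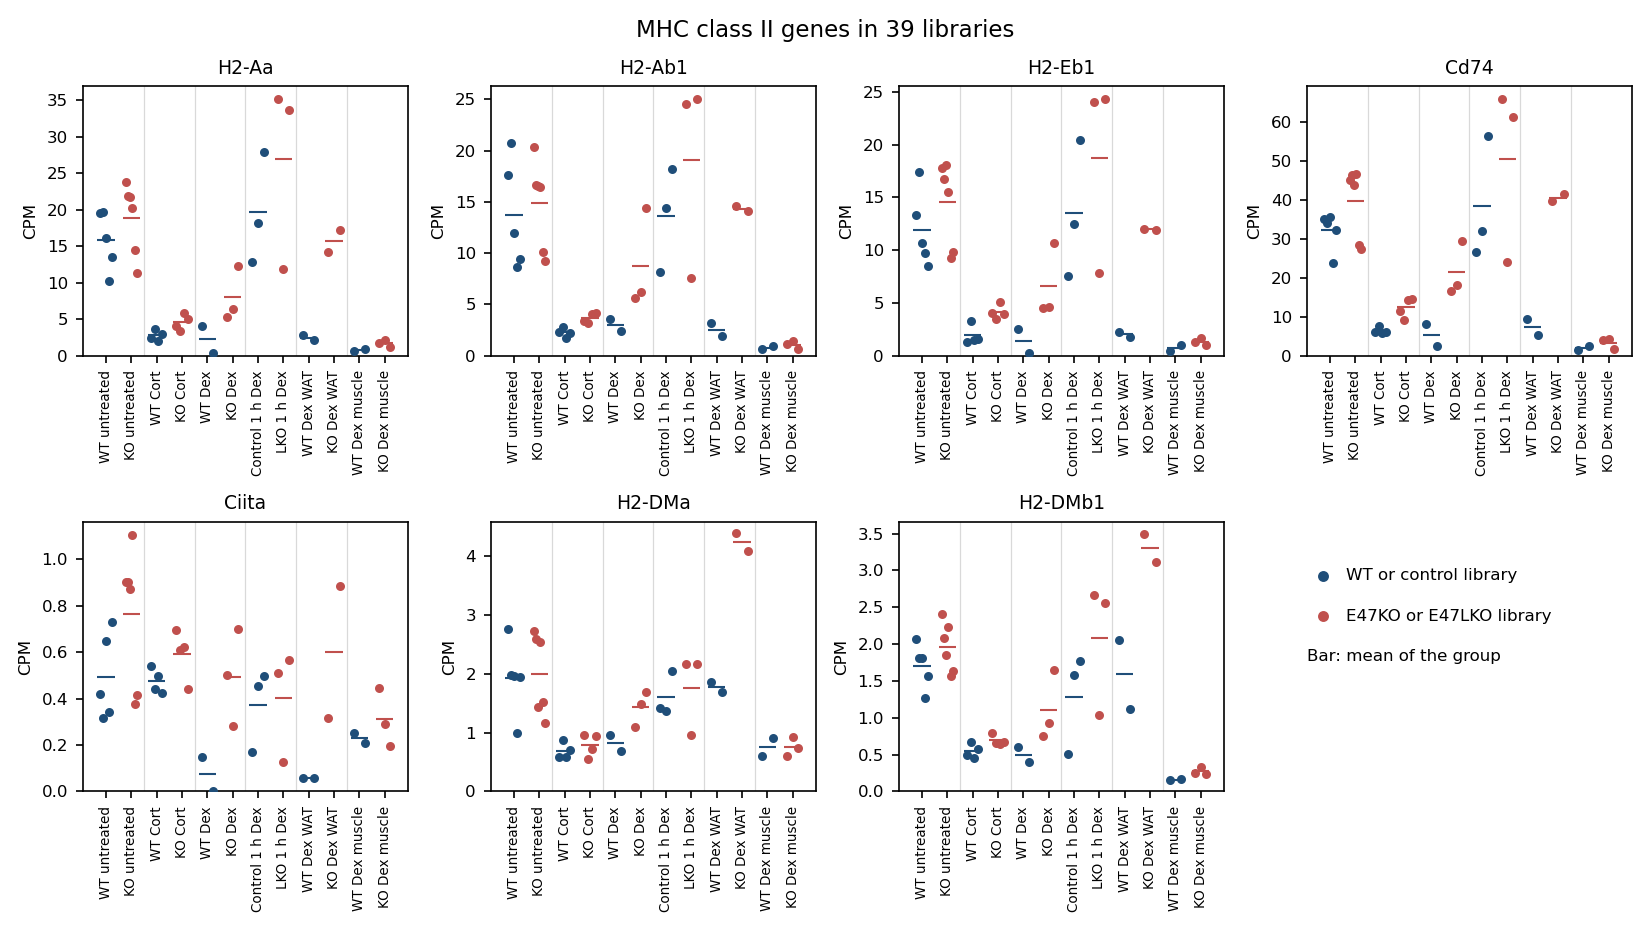
Level (CPM) of each of the 7 genes in the 39 libraries, 1 point per library and a bar for the mean of each group, blue for WT or control and red for E47KO or E47LKO. The 2 E47KO WAT libraries lie well above the 2 WT WAT libraries for all 7 genes, and livers after 3 weeks of hormone lie below untreated livers for most.

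In WAT after 3 weeks of Dex, the contrast from which the genes were chosen, all 7 were higher in both E47KO libraries than in both WT libraries. *H2-Aa* had 14.2 and 17.2 CPM in E47KO (replicates 2 and 3) and 2.79 and 2.16 CPM in WT (replicates 1 and 2). *H2-Ab1* had 14.6 and 14.1 CPM against 3.19 and 1.91 CPM. *H2-Eb1* had 12.0 and 11.9 CPM against 2.26 and 1.77 CPM. The E47KO libraries lay close together and several times above WT for each of these antigen-binding chains. *Cd74* had 39.7 and 41.4 CPM against 9.31 and 5.27 CPM. The log2 fold changes of these 4 genes fell between 2.49 and 2.68.

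The exchange factors differed less in WAT. *H2-DMa* had 4.39 and 4.07 CPM in E47KO against 1.86 and 1.68 CPM in WT, a log2 fold change of 1.26, and *H2-DMb1* had 3.49 and 3.12 against 2.06 and 1.12 CPM, a log2 fold change of 1.07. *Ciita* rested on few reads, with 0.315 and 0.885 CPM in E47KO against 2 counts in each WT library. The E47KO libraries held 50 *Ciita* counts in all and the WT libraries 4. Over all 16289 genes tested, 13.9% were higher in both E47KO libraries without overlap, and the median log2 fold change was 0.0025 against 2.50 for the 7 genes. The median stays at 2.50 with *Ciita* set to 3 counts in each WT library. Since the 7 genes were selected here, nothing is read from these counts.

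Among markers of the cells that usually carry class II, those of dendritic cells and macrophages overlapped between genotypes in WAT. The sum of 9 dendritic cell markers was 90.5 and 69.7 CPM in E47KO against 115 and 74.4 CPM in WT. Most of it was *Clec10a* (means of 47.3 and 61.6 CPM) and *Zbtb46* (25.1 and 27.7 CPM), which are not limited to dendritic cells, while *Itgax* had 3.94 and 2.12 CPM and the other 6 markers had means under 2 CPM. The sum of 11 macrophage markers was 2446 and 1338 CPM against 1667 and 1276 CPM, and *Lyz2*, its most abundant gene, had 880 ± 498 against 559.9 ± 72.4 CPM (SD, n = 2). The sum of 10 B cell markers was 0.946 and 0.722 CPM against 0.754 and 0.449 CPM, and the defining markers were at or near 0 in both genotypes, with *Pax5* at 0 counts in all 4 libraries and *Ms4a1* at 0 counts in both E47KO libraries and 2 counts in each WT library. The sum of 7 T cell markers was 2.47 and 2.23 CPM in E47KO against 2.15 and 1.60 CPM in WT, without overlap.

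**Figure D3:**
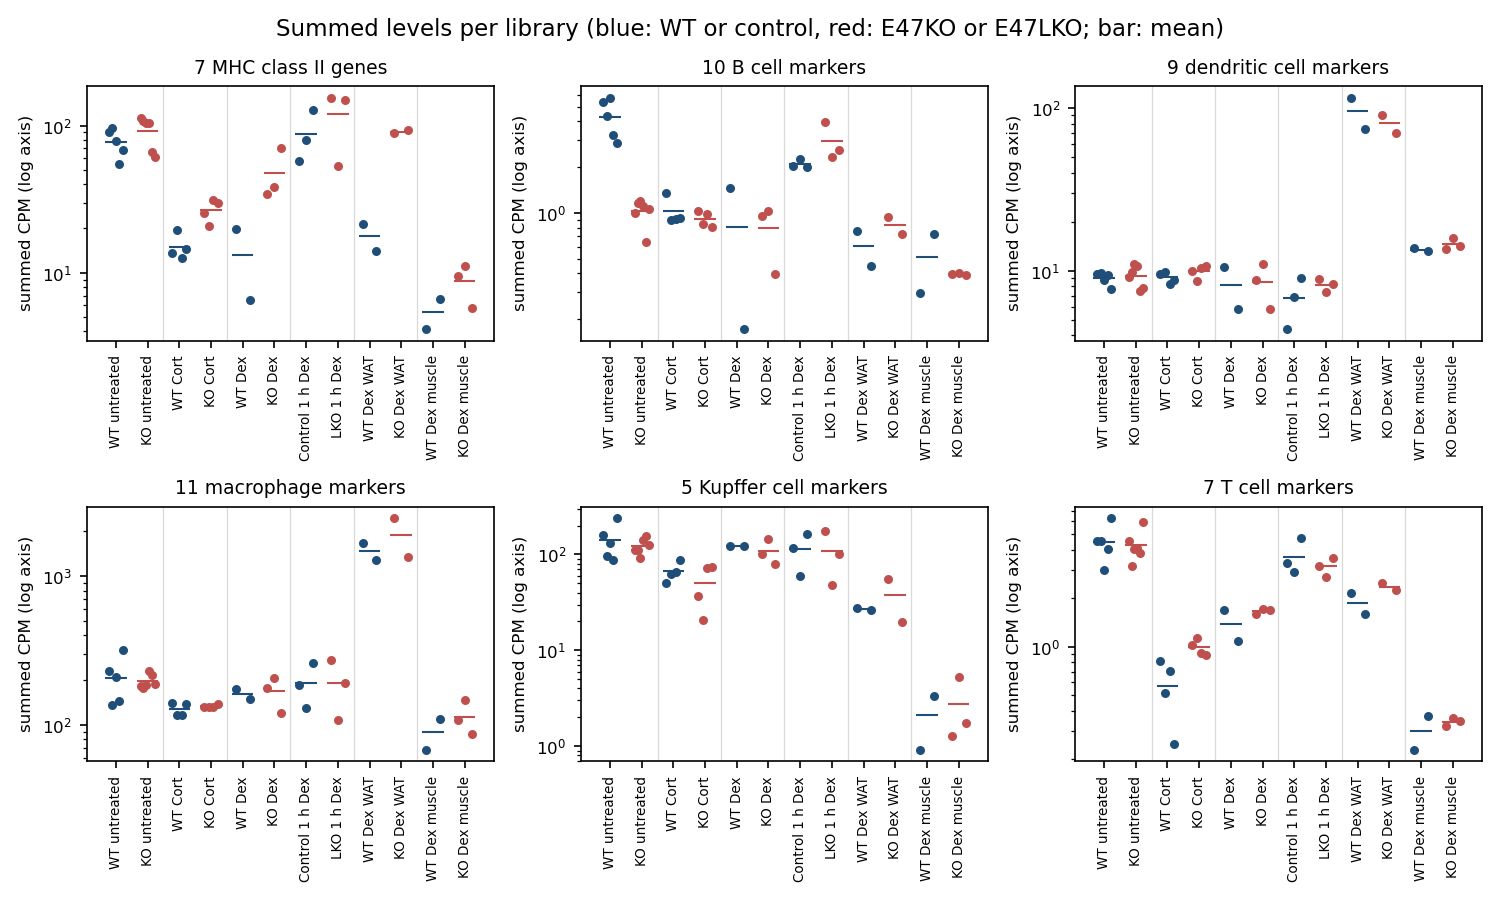
Summed level (CPM, log axis) of the 7 MHC class II genes and of markers of B cells, dendritic cells, macrophages, Kupffer cells and T cells in the 39 libraries, 1 point per library and a bar for the mean. In WAT the class II sum is 88.6 and 92.7 CPM in E47KO against 21.5 and 13.97 CPM in WT, while the dendritic cell and macrophage sums overlap.

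In Dex-treated livers all 7 genes were again higher in every E47KO library than in both WT libraries, but none passed the adjusted threshold. The genes were chosen on WAT, but with earlier results of these data known, so these livers are not an independent check. *H2-Aa* had 5.35, 6.34 and 12.3 CPM in E47KO (replicates 1 to 3) against 4.05 and 0.400 CPM in WT. *H2-Ab1* had 5.65, 6.201 and 14.4 CPM against 3.55 and 2.401 CPM, and *H2-Eb1* had 4.55, 4.57 and 10.7 CPM against 2.55 and 0.286 CPM. E47KO replicate 3 was the highest for each chain and WT replicate 2 the lowest. *Cd74* had 16.5, 18.2 and 29.4 CPM against 8.05 and 2.401 CPM.

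*Cd74* had the lowest p of the 7, with a log2 fold change of 2.04 ± 0.52 (SE), an unadjusted p of 0.0061 and an adjusted p of 0.999 with edgeR's quasi-likelihood test over 13300 genes. With the same test, 4 of the 7 genes had an unadjusted p under 0.05: *H2-Ab1* (log2 fold change 1.57 ± 0.52), *H2-Eb1* (2.22 ± 0.80), *Cd74* and *Ciita*, and *H2-Aa* had 1.86 ± 0.80. Over all genes, 1.17% were higher at that level, 0.00752% passed the adjusted threshold, and 7.25% were higher in every E47KO library without overlap. The median log2 fold change was 1.86 for the 7 genes, or 1.62 with *Ciita* set to 3 counts in each WT library, and 0.0034 for all genes.

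*Ciita* had 0.500, 0.280 and 0.698 CPM in E47KO against 3 and 0 counts in WT, so its pooled CPM, summed counts over summed depth, was 6.09 times higher with a 95% counting interval of 1.90 to 31.2. *H2-DMa* had 1.10, 1.49 and 1.69 against 0.950 and 0.686 CPM, a log2 fold change of 0.79 ± 0.38, and *H2-DMb1* had 0.750, 0.933 and 1.65 against 0.600 and 0.400 CPM, a log2 fold change of 1.14 ± 0.53. Both H2-DM genes missed even the unadjusted threshold. Marker sums of Kupffer cells, macrophages and dendritic cells overlapped between genotypes, with 80.3 to 145 CPM of Kupffer cell markers in E47KO against 122 and 123 CPM in WT, 121 to 208 against 149 and 174 CPM of macrophage markers, and 5.83 to 11.004 against 5.77 and 10.5 CPM of dendritic cell markers. *Ms4a1* and *Pax5* were at 0 counts in all 5 livers.

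WT replicate 2 and E47KO replicate 3 held much of this contrast. WT replicate 2 also had a low sum of 3 endothelial markers, 22.6 CPM against 93.2 CPM in WT replicate 1. E47KO replicate 3, the highest for the class II chains, had 25.9 CPM, beside 81.4 and 98.1 CPM in E47KO replicates 1 and 2. WT replicate 2 and E47KO replicate 3 shared a range of animal numbers that the other Dex livers did not. With the range of animal numbers as a term in edgeR, log2 fold changes ran from 0.80 for *H2-DMa* to 2.56 for *Ciita*, with 2.02 for *Cd74*. The part of the endothelial cells was not tested. Without WT replicate 2, all 7 genes were still higher in E47KO, with log2 fold changes of 0.62 to 1.71 (1.46 for *Cd74*). Without WT replicate 1 in its place, *H2-Ab1* had 1.83, *Cd74* 3.11, *H2-Aa* 4.26 and *H2-Eb1* 4.47. Each of these fits leaves a lone WT library, so only effect sizes are given. Without E47KO replicate 3, and with both WT livers kept, *H2-Ab1* had 0.93, *H2-Aa* 1.33, *H2-Eb1* 1.61 and *Cd74* 1.67. *H2-DMa* had 0.59 and *H2-DMb1* 0.67 in that fit, and *Ciita* was not tested. DESeq2 called *Cd74* in the full set, with a log2 fold change of 2.05 and an adjusted p of 0.0187, and so did edgeR with no filter on low counts, with an adjusted p of 0.00668. The share of all genes past adjustment given above holds for the main edgeR fit only. All-gene calls varied over the other settings, with the range given in the last section.

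**Figure D4:**
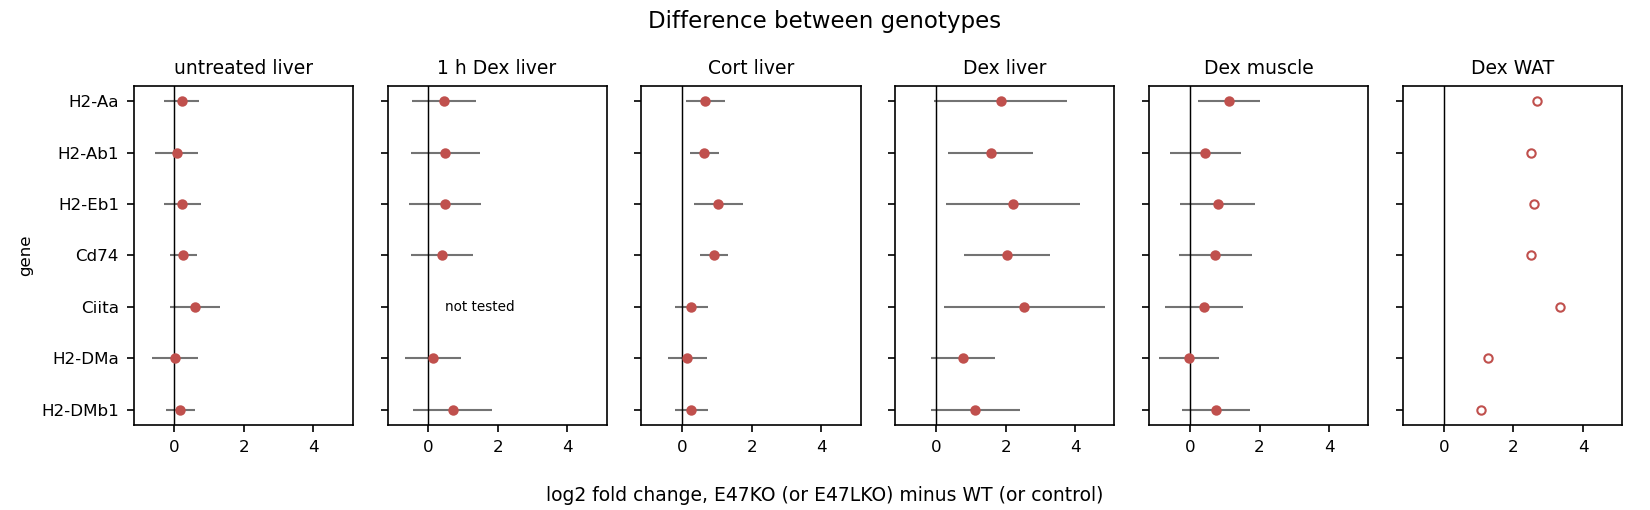
Log2 fold change of each gene, E47KO minus WT or E47LKO minus control, in 6 comparisons, with lines for the 95% intervals of edgeR's fit. Open circles mark WAT, where the genes were chosen and no interval is given, and *Ciita* had too few counts to be tested 1 h after Dex. Apart from *Ciita*, the values run from 0.02 to 0.27 in untreated livers and from 0.79 to 2.22 in Dex livers.

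After 3 weeks of Cort the antigen-binding chains and the invariant chain were again somewhat higher in E47KO livers, while *Ciita* and the H2-DM genes hardly differed. *Cd74* had 11.5, 9.12, 14.4 and 14.6 CPM in E47KO (replicates 1 to 4) and 6.03, 7.55, 5.76 and 6.10 CPM in WT. *H2-Eb1* had 4.02, 3.46, 5.07 and 3.93 CPM against 1.30, 3.30, 1.53 and 1.54 CPM, and *H2-Ab1* had 3.39, 3.15, 4.07 and 4.16 CPM against 2.31, 2.82, 1.78 and 2.22 CPM. For these 3 genes every E47KO liver was above every WT liver, as it was for 5.15% of 14588 genes. *H2-Aa* overlapped, with 4.06, 3.38, 5.91 and 4.97 CPM against 2.398, 3.72, 2.07 and 2.99 CPM.

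The log2 fold changes in Cort livers were 0.91 ± 0.18 (SE) for *Cd74*, 1.05 ± 0.31 for *H2-Eb1*, 0.65 ± 0.18 for *H2-Ab1* and 0.67 ± 0.25 for *H2-Aa*. These 4 genes had unadjusted p-values under 0.05, as 3.78% of all genes did in that direction, but none of the 7 passed adjustment in edgeR, where *Cd74* came nearest with an unadjusted p of 0.000701 and an adjusted p of 0.197. Of all genes, 0.0274% passed. DESeq2 called *Cd74* (adjusted p = 0.000905) and *H2-Eb1* (adjusted p = 0.0481), and adding the range of animal numbers as a batch term in edgeR gave *Cd74* an adjusted p of 0.0244. The 0.0274% holds for the main edgeR fit only. All-gene calls varied widely over the other settings, with the range given in the last section.

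*H2-DMa* had 0.56 to 0.96 CPM in E47KO Cort livers against 0.58 to 0.88 CPM in WT, *H2-DMb1* had 0.64 to 0.79 against 0.45 to 0.68 CPM, and *Ciita* had 0.44 to 0.69 against 0.42 to 0.54 CPM. The groups overlapped for all 3, with log2 fold changes of 0.16 to 0.27. The sum of macrophage markers was 131 to 139 CPM in E47KO against 116 to 140 CPM in WT and that of dendritic cell markers 8.65 to 10.7 against 8.26 to 9.79 CPM. The sum of T cell markers was 0.885 to 1.14 CPM in E47KO against 0.249 to 0.821 CPM in WT, without overlap, and its part in the class II difference was not tested.

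Without treatment no class II gene passed the test between genotypes, although B cell markers were lower in E47KO. *Cd74* had a lowest, median and highest level of 27.5, 44.5 and 46.6 CPM in 6 E47KO livers, and 35.1, 34.1, 35.6, 23.9 and 32.2 CPM in 5 WT livers. *H2-Aa* had 11.3, 21.0 and 23.7 CPM against 19.6, 19.7, 16.1, 10.2 and 13.5 CPM, and *H2-Ab1* had 9.19, 16.5 and 20.4 CPM against 17.6, 20.8, 12.0, 8.68 and 9.41 CPM. E47KO replicates 5 and 6 were low for all of these genes, and within each group the same livers tended to be low. *H2-Eb1* had 9.25, 16.1 and 18.1 CPM against 13.4, 17.4, 10.7, 9.73 and 8.45 CPM.

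All 7 genes overlapped between genotypes, whereas 0.173% of 13904 genes were higher in every E47KO liver. The log2 fold changes ran from 0.02 ± 0.30 (SE) for *H2-DMa* to 0.60 ± 0.33 for *Ciita*, with 0.27 ± 0.18 for *Cd74*, and edgeR's adjusted p-values were 0.966 or higher, with none of the 7 under 0.05 before adjustment and 0.0288% of all genes past it. With the range of animal numbers as a term, *H2-Eb1* (0.40) and *Cd74* (0.35) were under 0.05 before adjustment, and with the replicate number as a block so were *H2-Aa* (0.36), *H2-Eb1* (0.35) and *Cd74* (0.35), with adjusted p-values of 0.722 or higher in edgeR. *Ciita* ranged from 0.378 to 1.11 CPM in E47KO and from 0.318 to 0.731 CPM in WT. The 95% interval for *Cd74* ran from -0.11 to 0.65, so neither no change nor a rise of up to 0.65 is excluded. The sum of B cell markers was 0.647 to 1.20 CPM in E47KO against 2.89 to 5.75 CPM in WT. *Cd79a*, a subunit of the B cell receptor, had a mean of 0.0246 CPM in E47KO against 0.535 CPM in WT. It fell with an adjusted p of 0.0054 in edgeR, among the 0.0216% of genes that did. Macrophage sums (178 to 231 CPM in E47KO against 136 to 321 CPM) and dendritic cell sums (7.53 to 11.02 against 7.75 to 9.63 CPM) overlapped.

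In livers lacking *E47* only in hepatocytes, 1 h after a Dex injection, class II levels varied widely between mice of both genotypes. *Cd74* had 66.0, 23.98 and 61.2 CPM in E47LKO (replicates 1 to 3) and 26.7, 32.0 and 56.5 CPM in controls. *H2-Aa* had 35.2, 11.9 and 33.6 CPM against 12.9, 18.1 and 27.9 CPM, and *H2-Eb1* had 24.05, 7.86 and 24.3 CPM against 7.53, 12.5 and 20.5 CPM. E47LKO replicate 2 was below or near the lowest control for each of them and the other E47LKO livers were above all controls. *H2-Ab1* had 24.6, 7.61 and 25.1 against 8.16, 14.4 and 18.2 CPM. The 7 genes overlapped between groups, while 4.04% of 12601 genes were higher without overlap. The 6 genes tested had log2 fold changes of 0.14 to 0.70, and *Ciita*, at 0.13 to 0.57 CPM in all 6 livers, had too few counts for a test. EdgeR's adjusted p was 0.9998 for each, none had an unadjusted p under 0.05, and of all genes 0 passed. *Cd74* had a log2 fold change of 0.40 ± 0.38 (SE). Macrophage marker sums also varied widely and overlapped, at 107 to 273 CPM in E47LKO against 130 to 261 CPM.

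In quadriceps after 3 weeks of Dex, class II genes were low in both genotypes. *H2-Aa* had 1.76, 2.11 and 1.17 CPM in E47KO against 0.595 and 0.909 CPM in WT, a log2 fold change of 1.13 ± 0.37 (SE) with an unadjusted p of 0.0203 and an adjusted p of 0.9996 in edgeR. *Cd74* had 4.01, 4.32 and 1.85 CPM against 1.46 and 2.52 CPM, so E47KO replicate 3 lay among the WT values. *H2-Aa* and *H2-DMb1* did not overlap between genotypes, as was so for 9.03% of 14962 genes in the same direction. The other log2 fold changes ran from -0.03 for *H2-DMa* to 0.80 for *H2-Eb1*, none with an unadjusted p under 0.05, against 2.91% of all genes higher at that level and 0.0134% past adjustment. The markers of adipocytes were also higher in E47KO muscle, at 426.6 to 525.7 CPM against 167 and 206 CPM in WT, and their part in the *H2-Aa* value was not tested.

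Compared with untreated livers, livers after 3 weeks of Cort had much lower class II levels in both genotypes. In a fit of 24 livers of E47KO and WT mice with a mean for each group, 6 of 7 genes fell in WT and the same 6 in E47KO, with *Ciita* as the exception, against 16.2% and 18.3% of all 15976 genes. *H2-Ab1* fell by 2.71 ± 0.35 (SE) on the log2 scale in WT and by 2.12 ± 0.33 in E47KO. *Cd74* fell by 2.44 ± 0.28 and 1.78 ± 0.26, which took it from 32.2 ± 4.81 to 6.36 ± 0.806 CPM in WT (SD, n = 5 and 4). *H2-Aa* fell by 2.61 and 2.15 and *H2-Eb1* by 2.74 and 1.92. Of the H2-DM genes, *H2-DMa* fell by 1.59 and 1.44 and *H2-DMb1* by 1.73 and 1.62. All adjusted p-values of these genes were 0.00094 or lower in edgeR. No Cort liver of either genotype reached the lowest untreated liver for *H2-Aa*, *H2-Ab1*, *H2-Eb1* or *Cd74*. The share of all genes for which this held was not computed.

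*Ciita* did not pass the test after Cort. It had 0.42 to 0.54 CPM in WT Cort livers against 0.32 to 0.73 CPM in untreated WT livers, a log2 fold change of -0.15 ± 0.36 (SE) with an adjusted p of 0.782 in edgeR. In E47KO it was -0.47 ± 0.34 (adjusted p = 0.288). The *Ciita* values overlapped in both genotypes. Relative to *H2-Ab1* per length, *Ciita* was at 0.029 to 0.075 in Cort livers against 0.004 to 0.021 in untreated livers.

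After 3 weeks of Dex the class II genes were lower than in the same untreated livers as well. All 7 passed the test as lower in WT (15.9% of genes did) and 4 of 7 in E47KO (18.6% of genes did). *Cd74* fell by 2.65 ± 0.38 (SE) on the log2 scale in WT and by 0.88 ± 0.28 in E47KO. *H2-Aa* fell by 2.86 ± 0.56 and 1.22 ± 0.41, and *H2-Eb1* by 3.09 ± 0.60 and 1.11 ± 0.42. *H2-DMb1* fell by 1.78 ± 0.35 and 0.81 ± 0.26. In WT, *H2-Ab1* fell by 2.24, *H2-DMa* by 1.26, and *Ciita* went from 0.492 ± 0.186 CPM (SD, n = 5) to 3 and 0 counts. In E47KO, *H2-Ab1* had a log2 fold change of -0.75 ± 0.34 (adjusted p = 0.0931), *Ciita* of -0.62 ± 0.41 and *H2-DMa* of -0.48 ± 0.33, none past edgeR's threshold. The WT median was -2.61, or -2.24 with *Ciita* set to 3 counts per Dex liver, against -0.05 for all genes, and the E47KO median -0.81 against -0.03.

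These values depend on single livers. Without WT Dex replicate 2, the log2 fold changes of the 7 in WT ran from -1.10 to -2.31, with a lone WT Dex liver left. The WT count of 7 also moved: *H2-DMa* missed edgeR's threshold without untreated WT replicate 1 (adjusted p = 0.0683) and with the strand column (adjusted p = 0.0814). The E47KO count dropped to 0 without E47KO Dex replicate 1 or without replicate 2, and rose to 5 without replicate 3. All-gene calls in E47KO, in either direction, also moved, over 4039 to 5955 with 1 library left out against 5910 with all. Treated and untreated livers also came from separate experiments and library kits, and only the treated mice had a glucose tolerance test, so treatment and experiment cannot be told apart.

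**Figure D5:**
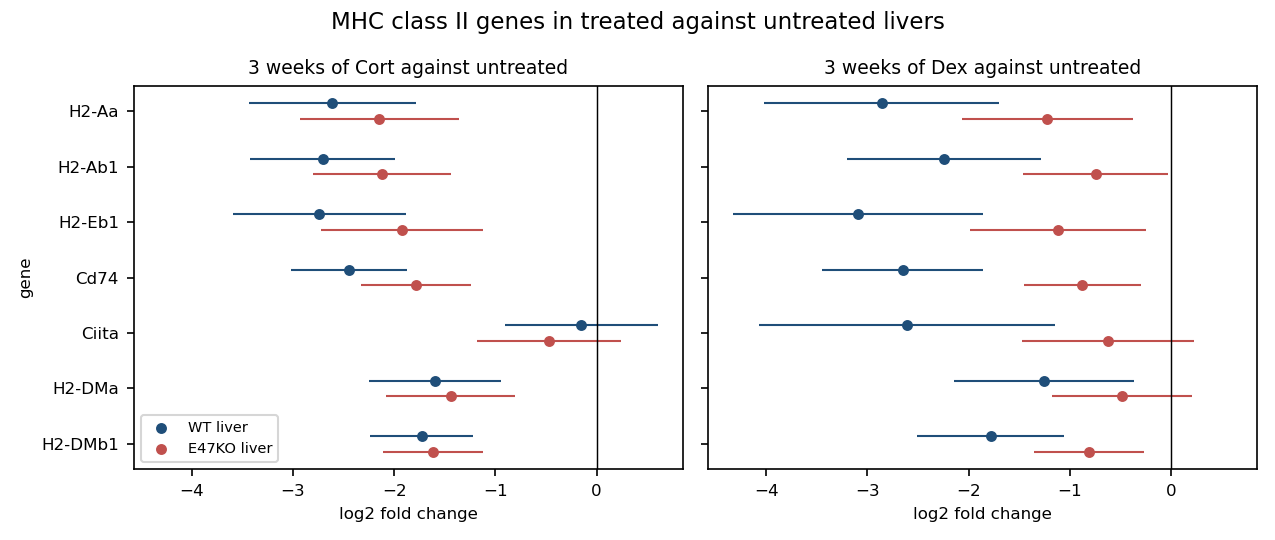
Log2 fold change of each gene in livers after 3 weeks of Cort or Dex against untreated livers, for WT (blue) and E47KO (red), with 95% intervals from 1 edgeR fit of 24 livers. All values lie below 0, and for Dex the E47KO values lie nearer to 0 than the WT values. The WT Dex value of *Ciita* rests on 3 counts.

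Whether the E47KO effect differed between treated and untreated livers was tested in the same fit. For Dex the difference of the 2 genotype effects was 1.77 ± 0.44 (SE) for *Cd74*, 1.98 ± 0.68 for *H2-Eb1*, 1.64 ± 0.65 for *H2-Aa* and 1.49 ± 0.55 for *H2-Ab1* on the log2 scale. At an unadjusted p under 0.05, 6 of the 7 were higher, *Ciita* on few counts among them and *H2-DMa* (0.77 ± 0.53) as the exception, against 2.03% of all genes. None of 15976 genes passed adjustment in edgeR, where *Cd74* had an adjusted p of 0.910. Without E47KO Dex replicate 3, only *Cd74* (1.41) had an unadjusted p under 0.05 in edgeR. Without WT Dex replicate 2, which leaves a lone WT Dex liver, the differences ran from 0.61 for *H2-DMa* to 1.29 for *H2-Ab1*, with 1.19 for *Cd74*. Without WT replicate 1 the difference was 4.06 for *H2-Aa* and 2.85 for *Cd74*. That fit leaves replicate 2 as the lone WT Dex liver, where *H2-Aa* had 7 counts. For Cort the difference was 0.66 ± 0.36 for *Cd74* and -0.32 to 0.81 for the others, and 0 of 7 had an unadjusted p under 0.05, against 3.31% of all genes in the higher direction and 0.00626% past adjustment in edgeR.

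Other parts of the antigen presentation system were read from lists of genes. Of the remaining class II genes, *H2-Ob*, part of the H2-DM inhibitor H2-DO, had 0.732 ± 0.237 CPM in untreated WT livers (SD, n = 5) and 0.0625 CPM after Cort, and *H2-DMb2* had 0.446 ± 0.182 and 0.0644 CPM. Both fell in WT with either hormone, and *H2-Oa*, *H2-Eb2* and the pseudogene of the H2-E alpha chain had too few counts for a test. In untreated E47KO livers *H2-Ob* had 0.222 CPM, with an unadjusted p of 0.0003 and an adjusted p of 0.6 against WT in edgeR.

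Genes of the factors that bind class II promoters were more often higher than lower after Cort in both genotypes and after Dex in E47KO, but not after Dex in WT. After Cort, 3 of 7 rose and none fell in WT (15.7% of all genes rose), and 4 rose in E47KO (19.7%), with medians of 0.11 and 0.45. *Rfx5*, the DNA-binding subunit of RFX, rose by 0.91 ± 0.20 (SE) in WT and by 1.34 ± 0.19 in E47KO on the log2 scale. *Nfya*, a subunit of NF-Y, rose by 0.87 and 0.96, and *Rfxank*, another RFX subunit, by 0.36 and 0.66. After Dex, 1 of 7 rose in WT (14.7% of all genes) and 4 in E47KO (18.4%). *Nfya* rose in both genotypes (0.48 and 0.47), *Rfx5* (0.79), *Rfxank* (0.53) and *Creb1* (0.38) in E47KO, and *Nfyb* fell by 0.52 in WT. *Nfyb* also rose by 0.45 in E47KO after Cort. Between genotypes none of the 7 passed in any comparison.

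Among 8 genes of class II processing and turnover, *Ctss*, the protease that trims the invariant chain, fell by 1.09 ± 0.19 (SE) after Cort in WT and by 1.15 ± 0.18 in E47KO on the log2 scale. *Ifi30*, which reduces disulfide bonds in the endosome, fell by 0.84 and 1.04, and *Lgmn* by 0.53 and 0.71. *Ctsb* rose by 0.41 in WT, and *Ctsl* (0.70) and *March1* (1.12), a ubiquitin ligase that removes class II from the surface, fell in E47KO. After Dex, *Ifi30* fell by 0.76 and 0.60 and *Ctsb* by 0.46 and 0.41, and *March8* fell by 0.40 in E47KO.

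Of the genes of class I presentation, which serves CD8+ T cells, 8 of 11 fell after Dex in WT (15.9% of all genes did) and 8 in E47KO (18.6% of all genes). Among immunoproteasome subunits, *Psmb10* fell by 1.81 and 1.57, *Psmb9* by 1.77 and 1.90 and *Psmb8* by 1.71 and 1.26 on the log2 scale. *B2m*, the light chain of class I, fell by 0.84 and 0.70, *Tap1* by 0.90 and 0.86, and *Nlrc5*, the class I transactivator, by 0.68 in WT. The most abundant class I heavy chain, *H2-K1*, had log2 fold changes of -0.39 and -0.20 that did not pass, and *H2-D1* -0.35 and -0.21. After Cort 3 of 11 fell in WT and 4 in E47KO, against 16.2% and 18.3% of all genes, *Psmb8* by 1.15 and 0.92 and *Psmb10* by 0.79 and 0.49 among them. *Erap1*, which trims peptides, fell by 0.47 and 0.74 after Cort and by 0.72 after Dex in E47KO. The class I median was -0.68 in WT and -0.70 in E47KO after Dex.

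In the interferon gamma pathway, the main inducer of class II outside B cells, *Ifng* itself had too few counts for a test. After Dex *Irf1*, a transcription factor of the pathway, fell by 1.65 ± 0.42 (SE) in WT and by 1.36 ± 0.34 in E47KO on the log2 scale. The target *Cxcl9* also fell in WT, with a log2 fold change of -3.04. After Cort *Irf1* had a log2 fold change of 0.06 ± 0.30 in WT, which did not pass, and *Cxcl9* (2.04) and *Ifngr1* (0.46) fell in E47KO. Between genotypes *Cxcl9* had 4.33 CPM in E47KO Dex livers against 0.868 CPM in WT, and 15.7 against 11.3 CPM in WAT, with an adjusted p of at least 0.725 in each of the 6 comparisons in edgeR. Of 5 co-stimulatory genes, *Cd86* fell by 0.90 in WT after Cort and *Cd40* rose by 2.18 in E47KO.

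Most macrophage and Kupffer cell markers fell beside class II after Cort, where 16.2% of all genes fell in WT and 18.3% in E47KO. In WT, 7 of 11 macrophage markers fell, with *C1qa* by 1.06, *C1qb* by 0.98, *C1qc* by 1.09 and *Csf1r* by 1.12 on the log2 scale, and 4 of 5 Kupffer cell markers, with *Clec4f* by 1.45 and *Timd4* by 1.76. In addition 5 of 6 tested T cell markers and 6 of 8 B cell markers fell, whereas 2 of 8 dendritic cell markers and 1 of 3 endothelial markers (*Kdr*) did. The median was -0.94 for macrophage markers and -1.45 for Kupffer cell markers against -2.44 for the 7 class II genes. In E47KO, where B cell markers were already low, 6 macrophage, 4 Kupffer cell, 5 T cell, 2 B cell and 3 dendritic cell markers fell.

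After Dex fewer of these markers were called. None of 11 macrophage markers and none of 5 Kupffer cell markers fell in either genotype in edgeR, and the only call among them was *Marco*, which rose by 2.33 in WT and 2.44 in E47KO. At an unadjusted p under 0.05, 2 macrophage markers were lower in WT (*Csf1r*, -0.71, and *Fcgr1*, -1.10) and 1 in E47KO. DESeq2 called 2 macrophage markers lower in WT and 0 in E47KO. In WT, where 15.9% of all genes fell, 6 of 8 B cell and 4 of 6 T cell markers did, and in E47KO, where 18.6% did, 1 of 8 B cell and 4 of 6 T cell markers. The part of these cells in the class II levels was not tested.

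Between libraries of the same group, the 7 genes varied together. After the mean of each group was removed, Pearson's r of log2 levels over 39 libraries ran from 0.445 for *Ciita* with *H2-DMa* to 0.947 for *H2-Aa* with *H2-Eb1*. These points share depth and library, and 12 group means were taken out, so no p is given. Against the mean of *H2-Aa*, *H2-Ab1*, *H2-Eb1* and *Cd74*, *H2-DMb1* had r = 0.785 and *H2-DMa* r = 0.703, above every other gene with a mean of at least 1 CPM. The other genes most like them were *G6pdx* (0.697), the first enzyme of the pentose phosphate pathway, *Ppp1r3d* (0.685), a glycogen-targeting subunit of protein phosphatase 1, *AU020206* (0.678), *Map3k12* (0.673), *Mgst3* (0.647), *Cxcl9* (0.642), *Gm17116* (0.641), *Ppic* (0.637), *A230072C01Rik* (0.629) and *Zfp429* (0.623).

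These neighbours depended on a pair of livers. Without the 2 WT Dex livers, 4 of the 10 stayed among the first 10, with *G6pdx* at r = 0.658, whereas *H2-DMb1* (0.828) and *H2-DMa* (0.742) kept their places. Over 30 livers 5 of the 10 stayed, and *H2-DMa* (0.721) came 11th, behind *Ppp1r3d* (0.797), *AU020206* (0.752), *Map3k12* (0.746) and *G6pdx* (0.745) among others. Marker lists followed the class II genes less closely, with a median r of 0.298 for macrophage, 0.249 for Kupffer cell 0.274 for endothelial and 0.222 for the 3 dendritic cell markers of at least 1 CPM, 0.175 for class I genes and -0.119 for class II promoter factors, beside -0.0206 over all 13047 genes. Over the 30 livers, endothelial markers had the highest median of the marker lists (0.323), against 0.212 for macrophage and 0.216 for Kupffer cell markers. That order also depended on the 2 WT Dex livers. Without them r was 0.084 for *Pecam1*, -0.082 for *Cdh5* and -0.096 for *Kdr*, the endothelial markers. Macrophage markers then ran from -0.039 (*Mertk*) to 0.428 (*C1qb*).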

How the data were processed

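RNA from liver, WAT and muscle was sequenced from TruSeq mRNA libraries by the authors, who mapped reads to mm10 with STAR (version 2.4.2a in the submitters' processing notes) and counted them per gene. The deposited counts are raw read counts, 1 file per library. The counter of the Dex files of 3 weeks is not certain, since their closing lines carry the names of HTSeq. In addition, 6 tables hold comparisons made by the authors (fold changes and p-values) and were not used.

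The members and lists were chosen with earlier results of these data known. The unstranded count column was used in all 39 libraries, because in Cort libraries labelled stranded the larger strand column held only 50.1% of the sum of both, and in the remaining stranded libraries 96.9 to 97.7%. Entries naming no gene were left out. CPM used plain totals, and per-length levels the union of exons in the GENCODE annotation of mm10. All 53 replicate pairs differed by more than sampling noise, and each library carries an animal number of its own within its group (3 mice gave both liver and muscle).

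Genotypes were compared within each experiment with edgeR 4.0.16 in R 4.3.3 (TMM, filterByExpr, quasi-likelihood test, two-sided, Benjamini-Hochberg over all tested genes, threshold 0.05), and treatments in 1 fit of 24 livers. The fit was tested on simulated data. A group with at most 3 counts per library was read as at the floor, and the intervals of *Ciita* ratios cover counting error only. Depth was 15513941 to 54560884 counts per library, so *Ciita* rests on few reads. Alternatives were other scalings, no count filter, DESeq2 1.42.0, the strand column, the replicate number or the range of animal numbers as a term, and each library left out. Genes named are the 7 members, listed genes that passed a test or were among the most abundant of their list, and the 10 nearest by likeness (r of log2 CPM with a prior count of 2). *Cd79a* and the markers given at 0 were among the lists, and values of list genes that passed no test were chosen after they were seen. Results for a few genes are not reported here.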

Additional observations from a re-analysis of the deposited data

Results flagged for a closer look

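Of 48 sets of 4 to 6 libraries examined (the 7 genes and the sums of marker lists), 5 had a library whose distance to the nearest other passed Dixon's 95% limit, and chance alone gives about 1 in 20. *H2-Eb1* was 3.30 CPM in WT Cort liver replicate 2, against 1.30 to 1.54 CPM in the other 3. *Cd74* was 23.9 CPM in untreated WT liver replicate 4, against 32.2 to 35.6 CPM in the other 4. The sum of B cell markers was 1.36 CPM in WT Cort liver replicate 1, against 0.898 to 0.922 CPM, and 0.647 CPM in untreated E47KO liver replicate 5, against 0.996 to 1.20 CPM. The sum of macrophage markers was 139.0 CPM in E47KO Cort liver replicate 4, against 131.4 to 131.6 CPM.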

How the results depend on the processing

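No gene among the 7 passed in edgeR between genotypes in any of the 5 tested comparisons, and DESeq2 called 1 in Dex livers and 2 in Cort livers, no low-count filter 1 in Dex livers, and the range of animal numbers as a term 1 in Cort livers. Leaving out 1 library at a time moved the median log2 fold change of the 7 genes in WAT over 2.22 to 2.81 (2.50 with all 4 libraries). The number of the 7 that fell with Dex in E47KO livers moved over 0 to 5, while all-gene calls there moved over 4039 to 5955. For Dex against untreated WT livers the median of the 7 moved over -2.04 to -3.73. For the difference of genotype effects between Dex and untreated livers it moved over 1.12 to 2.85. Of the 10 genes most like the 7, 5 remained over 30 livers and 4 over the 37 libraries left without the WT Dex livers, an alternative chosen after seeing the data. Counts over all genes were less stable: across the other settings 0 to 62 genes passed in Dex livers, 3 to 258 in Cort livers, 2 to 16 in untreated livers, 0 to 4 at 1 h, 1 to 90 in muscle and 0 to 38 in WAT, where leaving out 1 library gave 0 to 333 (333 without E47KO replicate 3).

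Single values near 0 changed sign. With the strand column *Ciita* was -0.030 in Cort livers and 0.28 for Cort against untreated WT livers, and *H2-DMb1* was -0.063 for the Cort minus untreated effect. *H2-DMa* in muscle was 0.0026 with plain totals and 0.056 with the animal-number term. With 1 library left out, *H2-DMa* ranged from -0.36 to 0.39 in muscle, from -0.16 to 0.20 in untreated livers, from -0.056 to 0.42 at 1 h and from -0.039 to 0.33 for the Cort minus untreated effect. *H2-Ab1* ranged from -0.069 to 0.31 in untreated livers, and *Ciita* from -0.28 to 0.019 for Cort against untreated WT livers. The cause was not tested.

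Replicate numbers did not pair the libraries, since deviations of same-numbered libraries correlated at r = -0.48 to 0.75 and 5 of the 16 pairs were under 0. With the replicate number as a block, 0 of 7 genes passed in Dex, Cort, untreated and 1 h livers and in muscle, and 0, 29, 2, 0 and 1 of all genes did. Livers of the same range of animal numbers correlated at r = -0.02 to 0.75 in the untreated set and at 0.22 to 0.72 in the Cort set. In WAT the replicate number could not serve as a block because the groups share only 1 replicate number. With the range of animal numbers as a term, log2 fold changes in WAT ran from 1.11 for *H2-DMb1* to 3.25 for *Ciita*, as a description only. Depth limits *Ciita*, which had 0 to 3 counts in WT Dex livers and WT WAT.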
